A study of Brassica rapa subsp. chinensis with 6 samples.

Results

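The genes described here, from pakchoi (Brassica rapa subsp. chinensis), are matched by name to families that build, loosen or reinforce the cell wall. They were taken from the authors' deposited table of genes called as different between a chlorotic mutant and its wild type, by the product text of each gene's database match. A gene was included when that text named xyloglucan, expansin, cellulose synthase or a CSLA or CSLG gene, a cellulase or endo-1,4-beta-glucanase, an arabinogalactan protein, an extensin or a hydroxyproline-rich protein, or held a symbol starting with XTH, XTR, EXPA or ATEXP. Texts with the words kinase or auxin were left out, which removed 1 gene. The rule gave 37 of the 2958 genes in the table. By family they were 14 xyloglucan endotransglucosylase/hydrolases (XTHs), 7 expansins, 5 cellulose synthases or synthase-like genes, 4 arabinogalactan proteins and 7 extensin-like or hydroxyproline-rich proteins, with 0 cellulases.

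RNA came from the shoots, given as the aboveground parts, of trifoliate plants. The wild type is strain 564 and the mutant is strain 564Y, with 3 libraries each, and no treatment is given for either. The labels say only that 564Y is a mutant with chlorosis and do not name the mutated gene or the background of the strains. The extraction protocol also speaks of several time points, but every library carries the same stage. The protocol describes independent biological replicates without saying what was pooled, and the p-values below rest on the spread between these libraries.

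The primary wall is a mesh of cellulose microfibrils tied together by hemicelluloses, of which xyloglucan is the main one in leaves of the cabbage family. XTHs cut and rejoin xyloglucan chains, and expansins loosen the contacts between xyloglucan and cellulose without cutting them, so both are known for their part in cell expansion. Cellulose synthases spin the microfibrils at the plasma membrane, while some cellulose synthase-like enzymes make other wall polysaccharides in the Golgi. Arabinogalactan proteins and extensins are glycoproteins rich in hydroxyproline that sit at the cell surface and in the wall, where extensins can be cross-linked into a network.

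Levels are normalised read counts, which are read counts divided by a size factor for each library, and folds are ratios of the authors' group means of these counts. Values of single libraries were worked out from the group means wherever exactly 1 set of whole read counts gave both deposited means. This was so for 2615 of the 2958 genes and for 22 of the 37 wall genes in both strains. Letters A, B and C name the libraries of a strain in the order of their size factors, which ran from 0.961 to 0.988 in the wild type and from 1.02 to 1.04 in the mutant. All 15 wall genes without resolved mutant libraries were among those higher in the mutant, so the resolved set holds 12 higher and 10 lower genes, where 56.9% of all resolved genes were higher. Only the reads of called genes are counted in the table, so the depth of the libraries is unknown. The 37 genes took up 3.10% of the normalised reads of all listed genes in the wild type against 6.90% in the mutant.

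Most of the wall genes rose in the mutant. By the authors' deposited table, 27 of the 37 were higher and 10 were lower, where 59.7% of all listed genes were higher and 40.3% were lower. The table holds called genes only, so neither count says what share of all wall genes of the plant changed. The median fold of the 27 higher genes was 4.03, beside 3.24 for all higher genes of the table with reads in both strains. The 10 lower genes fell by a median of 3.44-fold, beside 2.91-fold for all lower genes. An absolute log2 ratio of at least 3 was reached by 10 of the 37 and by 19.5% of the table. With such a ratio, 9 of the 37 were higher, beside 12.7% of the table, and 1 of the 37 was lower, beside 6.83%. The wall genes were also abundant, with a median of 1114 normalised reads per kb of coding length in their higher strain against 192 over the table. The 19.5%, 12.7% and 6.83% are shares of all listed genes, including 148 with 0 reads in a strain. The ratios of those 148 rest on a stand-in value of 0.001. No wall gene had 0 reads in a strain.

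**Figure D1:**
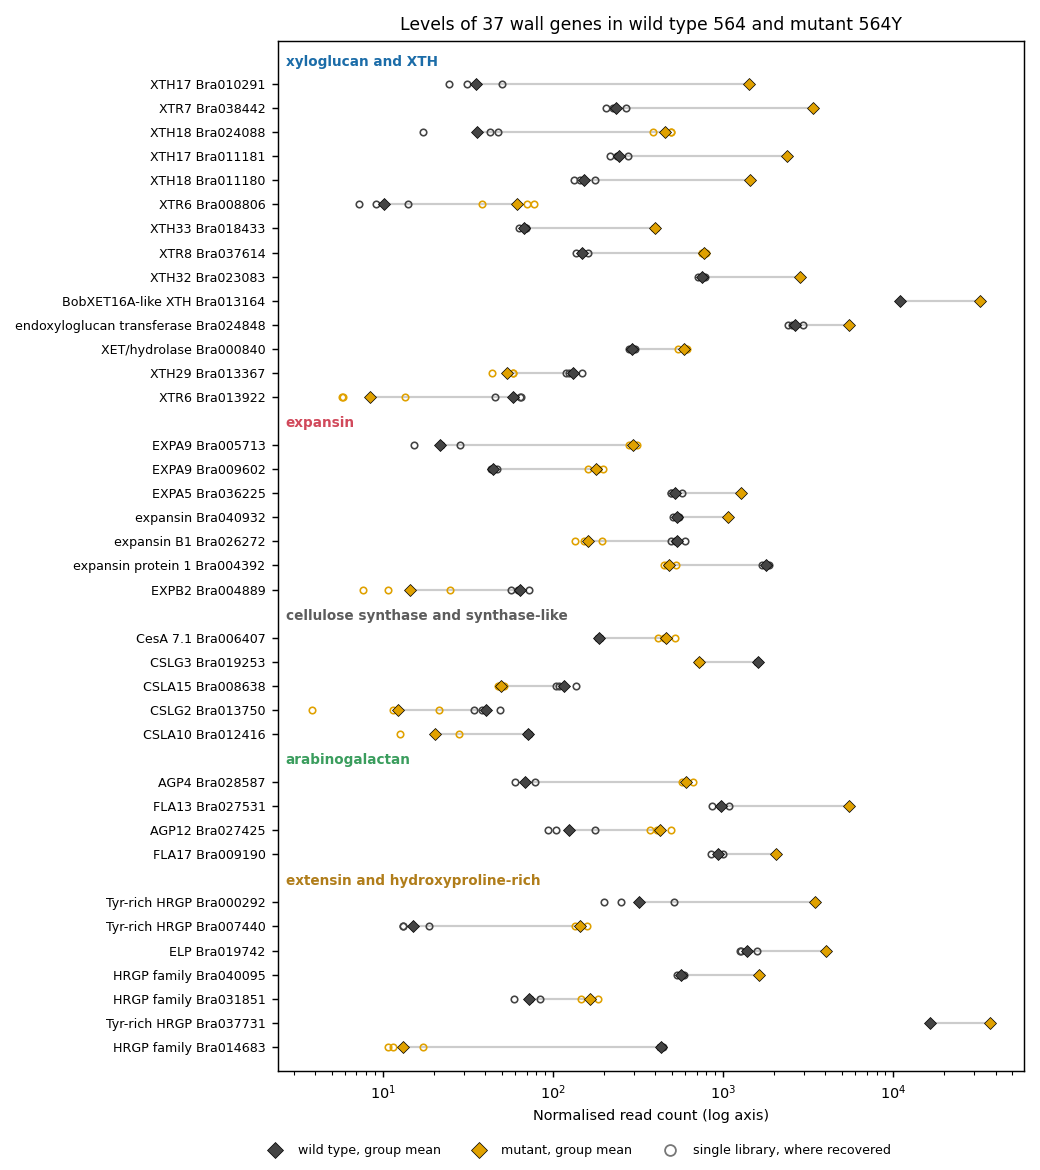
Normalised read count (log axis) of each of the 37 wall genes, by family, with group means as diamonds and single libraries as open circles where they could be resolved. Dark symbols are wild type 564 and yellow symbols mutant 564Y. In the 22 genes with resolved libraries in both strains the circles of the strains do not overlap.

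The 3 libraries of the mutant did not overlap the 3 of the wild type in any of the 22 resolved wall genes. The same held for 100% of the resolved genes of the table, all of which the authors had selected for their difference, so nothing is read from it. Of the 15 genes with several possible sets of mutant counts, 13 had resolved wild type libraries. In 9 of these 13, every possible set put all 3 mutant libraries above all 3 wild type libraries. In the other 4, at least 1 possible set did not. The remaining 2 genes, the most abundant of all, were resolved in neither strain.

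Among the XTHs, 12 of 14 rose and 2 fell. XTHs matched to XTH17 and XTH18 of Arabidopsis, which belong to the same branch of the family there, supplied 4 of the 5 largest rises. Together these 4 genes went from 466.5 to 5701 normalised reads, a 12.2-fold rise in the sum. The gene with the largest fold was an XTH17 match (Bra010291). Its wild type libraries held 31.4, 24.4 and 49.9 normalised reads, and its mutant mean was 1417, which is 40.2-fold higher. That fold ranked 52nd among the 1681 higher genes of the table with reads in both strains. Its mutant libraries could not be resolved. Library C lay between 1429 and 1586 in every possible set, but in at least 1 set library B was at 38.5, within the wild type range.

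The other XTH17 match (Bra011181) held 238.8, 217.7 and 274.7 normalised reads in the wild type and a mean of 2392 in the mutant, 9.81-fold higher. The gene with the neighbouring number, an XTH18 match (Bra011180), held 133.6, 143.4 and 177.9 in the wild type and averaged 1434 in the mutant, 9.46-fold higher. These genes with consecutive numbers thus showed folds of similar size. The second XTH18 match (Bra024088) was resolved in both strains. It held 17.2, 47.8 and 42.7 normalised reads in the wild type against 389.0, 496.5 and 492.3 in the mutant. Wild type library A was the lowest in this gene, and all mutant libraries were far above all wild type libraries. The log2 change fitted by edgeR's quasi-likelihood test was 3.68 (SE 0.23).

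XTR7 (Bra038442), an XTH known in Arabidopsis for its response to shade and growth hormones, held 205.5, 270.6 and 225.8 normalised reads in the wild type. Its mutant mean was 3382, which is 14.5-fold higher. The lowest mutant library in any possible set of counts was at 1805. Per kb of coding length XTR7 moved from place 18 among the 37 genes in the wild type to place 6 in the mutant.

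The most abundant XTH was a match to BobXET16A of broccoli (Bra013164). It was the highest of the 37 genes per kb in both strains, at 12387 in the wild type against 36570.2 in the mutant, and rose 2.95-fold from 11000 to 32474 normalised reads. A gene named endoxyloglucan transferase (Bra024848) came next, with wild type libraries at 2403, 2956 and 2556 and a mutant mean of 5474, 2.07-fold higher. These abundant genes had smaller folds than the XTH17 and XTH18 matches, which were low in the wild type.

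The remaining higher XTHs, outside the naming rule and given for completeness, rose between 2.02-fold and 6.07-fold. XTH33 (Bra018433), which in Arabidopsis carries a membrane anchor, was at 69.8, 63.1 and 69.7 normalised reads in the wild type against 406.3, 394.5 and 398.6 in the mutant. XTR8 (Bra037614) was at 161.9, 147.5 and 137.3 in the wild type against 757.9, 756.2 and 793.2 in the mutant. Libraries of a strain lay close together in both genes. XTH32 (Bra023083) averaged 753.8 in the wild type against 2854 in the mutant. A gene named xyloglucan endotransglycosylase/hydrolase (Bra000840) was at 304.6, 289.9 and 278.9 in the wild type against 602.3, 546.5 and 615.4 in the mutant, a fold of 2.02. Its log2 change of 1.01 (SE 0.11) dropped to 0.11 when the libraries were rescaled on the listed genes themselves (adjusted p = 0.364, edgeR), a scaling that moves the median log2 change of all resolved genes by -0.90.

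The lower XTHs were XTH29 and a match to XTR6. XTH29 (Bra013367) was at 148.8, 119.0 and 123.8 normalised reads in the wild type against 58.6, 58.7 and 44.0 in the mutant, 2.43-fold lower. The XTR6 match Bra013922 fell 6.96-fold, from 63.8, 65.1 and 45.8 to 13.4, 5.77 and 5.86.

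Some of the wall genes share 1 database match and are probable copies by name, and these did not always change alike. The other XTR6 match, Bra008806, went the opposite way from Bra013922, from 14.2, 9.16 and 7.28 normalised reads in the wild type to 38.4, 70.2 and 77.2 in the mutant. The log2 ratio of Bra008806 to Bra013922 was -2.55 ± 0.34 in the wild type against 2.95 ± 1.24 in the mutant (SD, n = 3 libraries each). The copy with more reads in the wild type was thus the copy with fewer reads in the mutant, in each of the 6 libraries. An exact permutation test of this ratio (two-sided) gave p = 0.1, the smallest that 3 against 3 libraries allow (adjusted p = 0.1 over 2 pairs). Both genes had been selected for their change, 1 rising and the other falling, each without overlap between the strains. The outcome of the test was thus fixed in advance, and nothing is read from it. No source used here says how reads shared by near-identical copies were assigned, so the split between copies is uncertain.

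The EXPA9 matches also changed order. Bra009602 was the higher copy in the wild type, at 43.5, 46.8 and 43.7 normalised reads against 15.2, 28.5 and 21.9 for Bra005713. In the mutant Bra005713 was the higher one, at 312.2, 292.5 and 278.4 against 160.4, 196.3 and 183.6. The log2 ratio of Bra005713 to Bra009602 was -1.08 ± 0.41 in the wild type against 0.71 ± 0.22 in the mutant (SD, n = 3 libraries each), without overlap (exact permutation test, two-sided p = 0.1, adjusted p = 0.1 over 2 pairs). By group means the XTH17 matches kept their order, with Bra011181 higher by 6.92-fold in the wild type and by 1.69-fold in the mutant. Mutant libraries were not resolved, so the difference was not tested and the order within single mutant libraries is unknown.

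**Figure D2:**
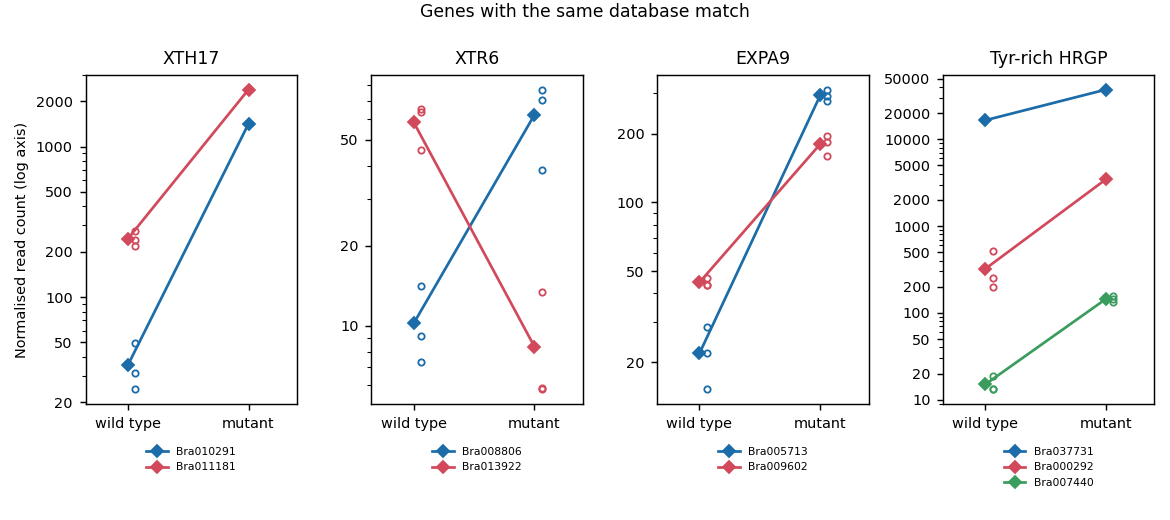
Normalised read count (log axis) in wild type and mutant for wall genes that share a database match, with group means as diamonds joined by lines and single libraries as open circles where resolved. The lines cross for XTR6 and EXPA9 and do not cross for XTH17 or the tyrosine-rich hydroxyproline-rich proteins.

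Expansins were split, with 4 of 7 higher and 3 lower. The EXPA9 matches rose most, 13.5-fold for Bra005713 (log2 change 3.75, SE 0.21, edgeR) and 4.03-fold for Bra009602 (log2 change 2.01, SE 0.18). EXPA5 (Bra036225), an alpha-expansin, was at 493.9, 493.4 and 575.4 normalised reads in the wild type and averaged 1282 in the mutant, 2.46-fold higher. A gene matched to an expansin of rapeseed (Bra040932) went from 505.0, 547.3 and 548.4 to a mean of 1075, 2.02-fold higher. For these 2 abundant genes some possible sets of mutant counts overlap the wild type libraries.

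Both genes named beta-expansins fell. Expansin B1 (Bra026272) was at 594.1, 519.9 and 494.2 normalised reads in the wild type against 152.7, 194.3 and 134.8 in the mutant, 3.34-fold lower. EXPB2 (Bra004889) fell 4.41-fold, from 56.7, 72.2 and 62.4 to 25.0, 7.70 and 10.7. Mutant library A was the highest in EXPB2, and without it the log2 change went from -2.13 (SE 0.34) to -2.77. The lower expansin with the most reads was expansin protein 1 (Bra004392), matched to brown mustard. It was at 1795, 1686 and 1860.4 in the wild type against 465.9, 528.2 and 448.4 in the mutant, 3.70-fold lower (log2 change -1.89, SE 0.09, edgeR).

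The rises and falls of expansins offset each other in reads. The 7 genes summed to 3501 normalised reads in the wild type against 3488 in the mutant. Expansin protein 1 held 50.9% of the sum in the wild type, and EXPA5 held the largest share in the mutant, at 36.8%. Per kb of coding length expansin protein 1 went from place 5 among the 37 genes to place 20.

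Of the cellulose synthase genes, 1 rose and 4 fell. The higher gene was a match to a cellulose synthase 7 catalytic subunit of rapeseed (Bra006407). In Arabidopsis the CesA7 subunit makes cellulose of secondary walls. It was at 187.2, 190.2 and 185.2 normalised reads in the wild type against 415.0, 524.4 and 447.4 in the mutant, 2.46-fold higher (log2 change 1.30, SE 0.13, edgeR). Under the rescaling on listed genes named above, the log2 change of Bra006407 dropped to 0.40 (adjusted p = 0.0104, edgeR). The 4 lower genes were all of the synthase-like type and fell 2.27-fold as a sum.

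CSLG3 (Bra019253) was the most abundant of the 4. Its libraries lay at 1616, 1578 and 1617 normalised reads in the wild type against 733.9, 709.1 and 734.6 in the mutant, 2.21-fold lower. The SD over the libraries of a strain was 22.4 for the wild type, with 14.5 for the mutant. CSLG2 (Bra013750) fell 3.31-fold from 38.5, 34.6 and 48.9 to 3.84, 11.5 and 21.5. Its mutant libraries were far apart, and the log2 change of -1.72 (SE 0.41) became -2.38 without mutant library C and -1.29 without mutant library A. The CSLA genes belong to a family that makes mannans in Arabidopsis. CSLA15 (Bra008638) fell 2.36-fold from 108.3, 103.8 and 136.3 to 51.9, 48.1 and 47.9, and CSLA10 (Bra012416) fell 3.54-fold from 70.8, 71.2 and 72.8 to 20.2, 27.9 and 12.7.

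All 4 arabinogalactan proteins rose. FLA13 (Bra027531) carries a fasciclin domain, known for adhesion at the cell surface, as does FLA17. FLA13 was at 860.3, 1088 and 965.6 normalised reads in the wild type and averaged 5514 in the mutant, 5.68-fold higher. Every possible set of its mutant counts lay above 3981. FLA17 (Bra009190) was at 855.2, 1000.03 and 941.7 in the wild type and averaged 2037 in the mutant, 2.18-fold higher.

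The short arabinogalactan proteins were resolved in both strains. AGP4 (Bra028587) rose 8.89-fold, from 59.7, 68.2 and 78.0 normalised reads to 596.5, 662.9 and 571.5 (log2 change 3.15, SE 0.15, edgeR). The similarity behind this name is weak, with an E-value of 2.8e-06. AGP12 (Bra027425), with a coding length of 186 bases, rose 3.42-fold, from 176.1, 103.8 and 93.6 to 495.6, 407.9 and 373.2. Wild type library A was the highest of its strain in AGP12, and all mutant libraries were higher still.

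Of the 7 extensin-like and hydroxyproline-rich genes, 6 rose and 1 fell. The 3 genes matched to a tyrosine-rich hydroxyproline-rich glycoprotein of parsley all rose. Bra037731 took place 2 of the 37 genes per kb in both strains and rose 2.26-fold, from 16539 to 37367 normalised reads. Bra000292 rose 10.8-fold, from 252.0, 200.4 and 513.0 in the wild type to a mean of 3466. Wild type library C stood above the others there, and every possible set of mutant counts lay above 1669. Bra007440 rose 9.66-fold from 13.2, 13.2 and 18.7 to 143.1, 157.8 and 134.8.

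ELP (Bra019742), an extensin-like protein that the table also annotates as lipid binding, took place 3 per kb in both strains. It was at 1252, 1282 and 1592 normalised reads in the wild type and averaged 4028 in the mutant, 2.93-fold higher. The genes named hydroxyproline-rich glycoprotein family protein went both ways. Bra040095 rose 2.89-fold from 591.0, 563.6 and 535.9 to a mean of 1628, although some possible sets of its mutant counts overlap the wild type. Bra031851 rose 2.28-fold from 84.0, 59.0 and 73.9 to 165.2, 183.8 and 146.5. Its log2 change of 1.19 (SE 0.18) dropped to 0.29 under the rescaling on listed genes named above (adjusted p = 0.138, edgeR).

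The last of these, Bra014683, showed the largest fall of the 37 genes, 32.8-fold. It was at 425.1, 445.6 and 426.6 normalised reads in the wild type against 11.5, 17.3 and 10.7 in the mutant. The log2 change was -5.02 (SE 0.20, edgeR), and the fall ranked 43rd among the 1129 lower genes of the table with reads in both strains. Mutant and wild type libraries lay far apart, and the wild type SD was 11.4. Per kb of coding length this gene went from place 16 among the 37 to place 36.

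**Figure D3:**
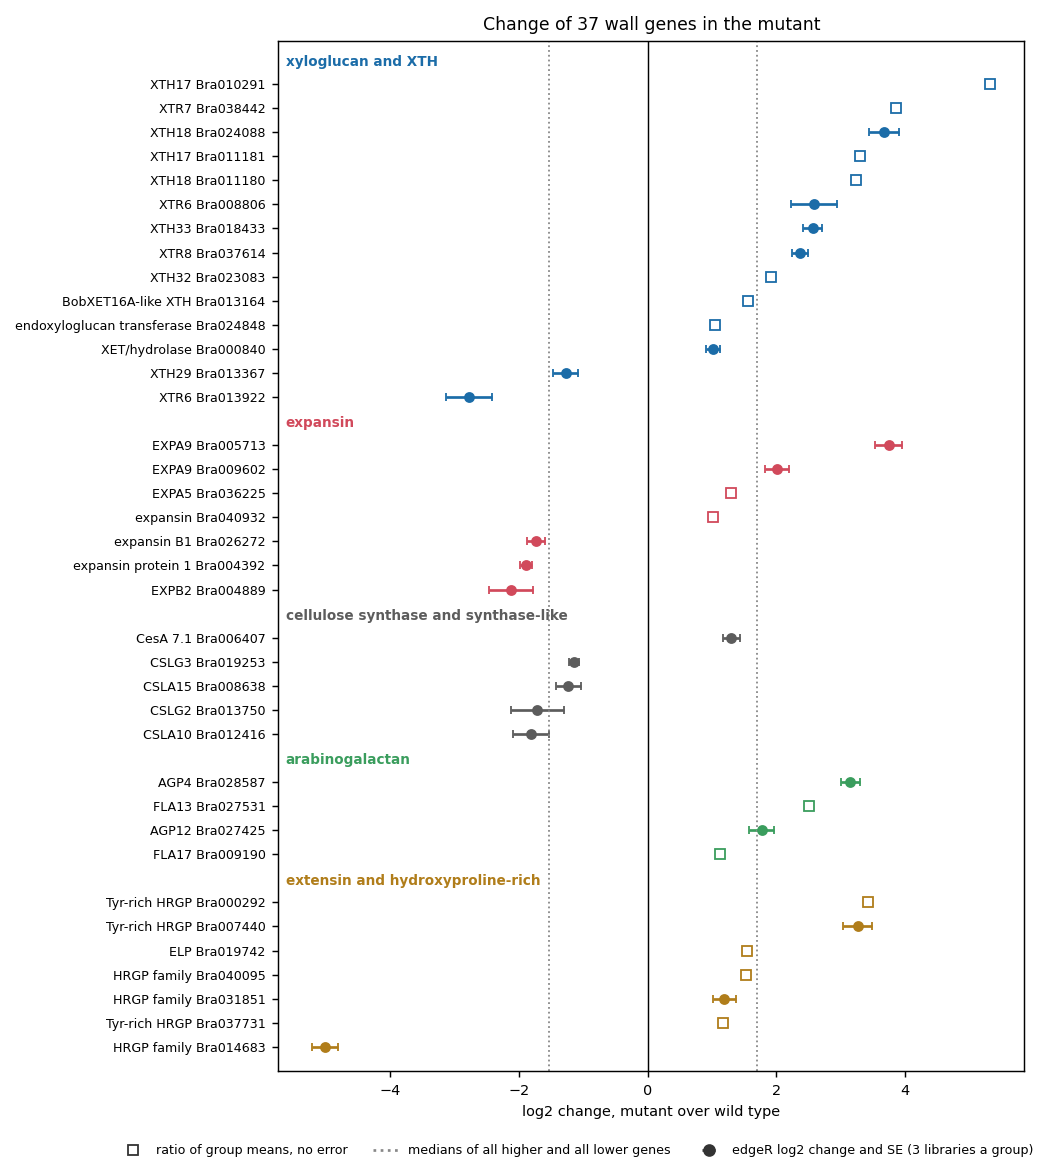
The log2 change of each wall gene, mutant over wild type, by family. Filled circles are edgeR estimates with their SE (n = 3 libraries a strain), open squares are ratios of group means with no error, and dotted lines mark the medians of all higher (1.70) and all lower (-1.54) genes of the table with reads in both strains. XTHs, arabinogalactan proteins and hydroxyproline-rich genes lie mostly to the right, and the 4 cellulose synthase-like genes all to the left.

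In the edgeR fit over the 2615 resolved genes, 22 of 22 wall genes had a Benjamini-Hochberg adjusted p under 0.05, from 6.78e-14 for Bra014683 to 0.000521 for CSLG2 (Bra013750). All listed genes had been selected for their difference and 100% of the resolved ones passed, so these p-values are no independent evidence. The SEs come from the F statistics of that fit, so they rest on the same selected genes and may be too small. Among the 16 resolved wall genes with at least 20 normalised reads in both strains, the coefficient of variation over libraries had a median of 8.98% for wild type and 9.41% for mutant, beside 11.8% and 11.0% for 1758 such genes of the table.

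The families weighed differently once their levels were summed per kb of coding length. XTHs rose from 17534 to 58076 and took 47.5% of the summed level of all 37 genes in the wild type against 56.5% in the mutant. Hydroxyproline-rich genes rose from 10603 to 26782, with a share of 28.7% in the wild type against 26.1% in the mutant. Arabinogalactan proteins rose from 2806 to 12575, a 4.48-fold change of the sum. Expansins summed to 4631 and 4620, and the sum of the cellulose synthase genes went from 1332 to 712.0. The direction of that last sum rested on CSLG3 (Bra019253), which held 85.0% of it in the wild type against 72.0% in the mutant. Not divided by length, the other 4 genes summed to 416.0 and 544.1 normalised reads, 1.31-fold higher in the mutant. On that scale the CesA7 match (Bra006407), with 3105 coding bases, weighed most and was the gene that rose. Per kb it went from 60.4 to 148.9. CSLA15, CSLA10 and CSLG2 fell from 76.5, 43.7 and 18.8 per kb to 32.5, 12.3 and 5.69. The 1.31-fold rise thus does not carry over to levels per kb. Without expansin protein 1 (Bra004392) the other 6 expansins, also not divided by length, summed to 1721 and 3007 normalised reads, 1.75-fold higher. Single genes also carried much of the other sums: Bra013164 held 70.6% of the XTH level in the wild type against 63.0% in the mutant, and Bra037731 held 59.3% and 53.0% of the hydroxyproline-rich level. These sums cover the listed genes only and have no error, because abundant genes were not resolved by library.

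**Figure D4:**
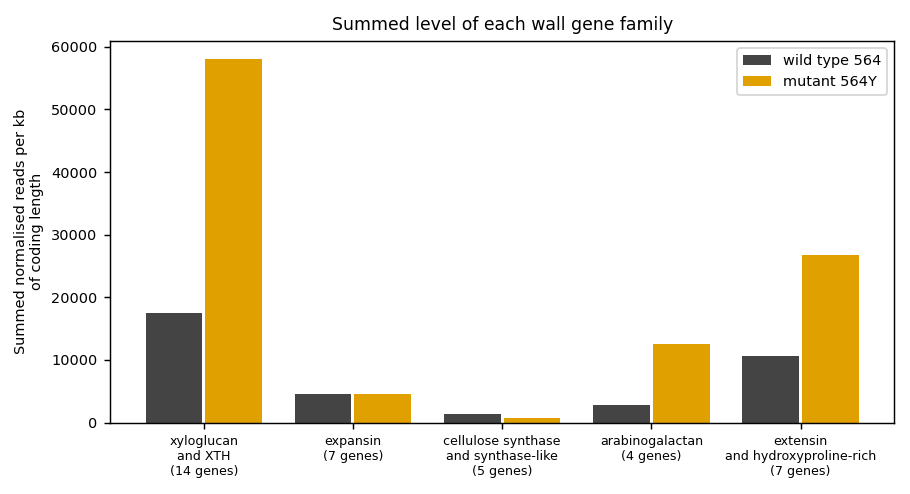
Summed normalised reads per kb of coding length of the listed genes of each wall family in wild type 564 (dark bars) and mutant 564Y (yellow bars), from group means. XTHs make up the tallest bars in both strains, and the expansin bars have nearly the same height.

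Other genes were matched by 17 words chosen for wall assembly and remodelling, such as beta-galactosidase, xylosidase and laccase, and were listed for 7 of the words. A match by word, as with glycine-rich, does not show that a gene acts in the wall. Of 25 genes, 18 were higher and 7 were lower, 72% higher beside 59.7% of the table. All 4 beta-galactosidases rose. Some members of that enzyme family trim galactose from xyloglucan side chains in Arabidopsis. Bra029200, matched to beta-galactosidase 6, rose 11.99-fold from 157.9, 168.9 and 142.6 normalised reads to a mean of 1876. Of 6 genes named xylosidase, 4 rose and 2 fell. These are enzymes that remove xylose or arabinose from wall polymers, and the one with the highest level per kb, Bra010038, rose 4.88-fold to 20824 normalised reads.

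All 4 laccases, copper oxidases known for polymerising lignin, rose from at most 8.14 normalised reads in any wild type library. A LAC12 match (Bra009111) was at 2.02, 0 and 0 normalised reads in the wild type against 65.3, 88.5 and 94.8 in the mutant. The highest ratios of these 25 genes all belonged to laccases, namely Bra009111, Bra034852 and Bra017010. Each rests on 2 wild type reads, so the size of the fold is poorly known. At the other end, the glycine-rich gene Bra031554 was at 123.5, 100.7 and 126.9 in the wild type and had 0 mutant reads. Against a floor of 3 reads over the group it was at least 121-fold lower. The glycine-rich gene Bra011077 fell 5.53-fold and a beta-1,3-glucanase gene (Bra007314) 3.63-fold. In all, 3 of 4 beta-1,3-glucanases fell. A further gene spelled beta-1,3 glucanase was not matched by these words, and neither was a gene named basic glucanase.

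Because shoots of different form can hold different shares of organs, markers of other organs were counted in the same table, and their part in the wall gene results was not tested. In bulk RNA, fewer cells of a type and less RNA per cell cannot be told apart. Root markers had 2 listed genes, both higher, RHD2 (Bra029194) from 7.83 to 56.7 normalised reads and MLP34 (Bra003939) from 0.347 to 31.3. Flower markers had 3 higher and 1 lower, but only the AGL9 and AGL8 homologs (Bra010955 and Bra012997) are floral genes by name, with means of 0.675 and 0 normalised reads in the wild type against 25.7 and 14.2 in the mutant. Seed markers had 2 listed genes, both higher, with at most 48.0 normalised reads. Of these, Bra035603 is also counted above as a glycine-rich gene among the other wall genes. Words for pollen and secondary wall markers matched 0 listed genes, although the CesA7 match and the laccases given above are known from secondary walls. Of the leaf words, only photosystem I subunit G (Bra038011) was a true match, at 1589 in the wild type against 602.6 in the mutant.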

How the data were processed

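RNA of 3 libraries of wild type 564 and 3 of mutant 564Y was analysed from 1 table of genes called by the authors. The submitters' processing notes list TopHat2 2.0.12, Bowtie2 2.2.3 and DESeq 1.10.1 without saying what each did. Genome build, annotation and read counting: not given in the sources used here. Per the file headers, the authors deposited mean read counts (a signal that is a whole number of reads over 3) and base means of each group (size-factor normalised), with the log2 ratio of the base means, a p-value and its adjusted value, and a gene length (other unit). All 2958 genes passed the authors' limits, an adjusted p under 0.001 and a log2 ratio of 1 or more in size. All lengths are multiples of 3 and are therefore coding lengths. The reference gene table held 0 of the identifiers, so neither coordinates nor sequences are given.

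Library counts were worked out with numpy 2.4.6 as the whole numbers that give both group means. A gene counted as resolved with exactly 1 solution, and 0 genes had none. Solutions rest on the deposited means being rounded to their last printed digit. The recovery and both count tests were tested on simulated data. The simulation used resolved genes only and left most of them unchanged, whereas all listed genes had been selected for their difference. It therefore does not cover the abundant unresolved genes or a table of called genes only. The recovered counts of 2615 genes were fitted with edgeR 4.0.16 (quasi-likelihood, the size factors worked out from the means, Benjamini-Hochberg). DESeq2 1.42.0 was the alternative, and both ran under R 4.3.3. Copies were compared with an exact permutation test. In families of at most 8 members every member was named; among XTHs the rule took the 6 log2 ratios largest in size, in either direction, the 2 most abundant genes and those against the family's main direction. Of the other wall genes it took the 3 highest and 3 lowest log2 ratios among those with at least 20 normalised reads in a strain; Bra029200 and Bra010038 were added, as were the XTHs outside the rule, after their values were seen. Members, lists and tests were chosen with earlier results of these data known.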

Additional observations from a re-analysis of the deposited data

How the results depend on the processing

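No paired analysis was possible because nothing ties a resolved library to a replicate number of the labels. In the 22 wall genes with resolved libraries, 218 of 220 recomputed log2 changes kept their direction and their side of 0.05, 2 lost the call under DESeq2 size factors, and 0 changed sign. Rescaling on the listed genes, which takes called genes as its reference, moved the median log2 change by -0.43 (TMM) and -0.90 (DESeq2 size factors). Under the latter edgeR called 1128 higher and 1128 lower genes, against 1487 and 1128 without it, and 20 of 22 wall genes. Leaving out 1 library, a low count filter, TMM and DESeq2 each gave 22 of 22. These selected genes nearly all pass the test, which says little about stability. The 15 wall genes not resolved in both strains could not be refitted. Some of them had small log2 ratios, such as 1.01 for Bra040932 and 1.05 for Bra024848, and their dependence on scaling was not tested.

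With a log2 ratio of 2 or more in size, 14 wall genes were higher and 3 lower, and 11 other wall genes were higher and 2 lower. Only resolved genes left 12 higher and 10 lower, since the abundant higher genes are missing there. Keeping matches with an E-value of at most 1e-100, chosen after seeing the data, left 19 higher and 10 lower, where 59.7% of all listed genes were higher. The 8 genes removed by this limit were all higher. All of them were arabinogalactan, extensin-like or hydroxyproline-rich proteins, so the names of those families rest on weaker matches. The other limits (base mean of at least 20, symbol matches, neighbouring numbers) left 26 or 27 higher and 10 lower. Shares of all wall reads depend on length and on single genes. In the wild type the XTH share was 36.97%, 47.5% per kb and 44.3% without the highest gene of each family, with 8.19%, 12.5% and 15.9% for expansins, 4.73%, 3.61% and 3.84% for cellulose synthases, 4.91%, 7.60% and 10.4% for arabinogalactan proteins, and 45.2%, 28.7% and 25.6% for hydroxyproline-rich genes. In the mutant the same shares were 46.3%, 56.5% and 54.6%, then 3.12%, 4.50% and 8.50%, 1.13%, 0.693% and 1.54%, 7.67%, 12.2% and 8.69%, and 41.8%, 26.1% and 26.7%.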
